A study of Apostichopus japonicus with 9 samples.

Results

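The miRNAs described here are 87 names that the authors listed as higher in the sea cucumber intestine after 48 h of heat and did not list after 6 h. They were chosen from the authors' table for 48 h, which holds 290 names, 179 of them higher than the control. Of these 179 names, 55 also stood in the table for 6 h. Leaving out the 55 and 37 further names of families such as let-7, miR-1, miR-7, miR-10, miR-71, miR-92, miR-124 and the echinoderm-named miR-2004 to miR-2012 gave the 87. The small RNA libraries came from intestines of 9 Apostichopus japonicus of 100 to 120 g, 3 kept under normal conditions, 3 held at 26 °C for 6 h and 3 held at 26 °C for 48 h. The labels give no temperature or sampling time for the control and no strain, sex or genotype for any animal. The choice used the control and 48 h levels and the listing at 6 h, so those values are a description and carry no test.

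A microRNA (miRNA) is a short RNA that guides an Argonaute protein to matching sites in messenger RNAs and lowers their translation or stability. In animals the match is set mostly by the seed, a short stretch near the 5′ end, so miRNAs that share a seed can share targets. Sea cucumbers are echinoderms, and this species shrinks its gut when it becomes dormant in warm summers. Most of the 87 names were first given to miRNAs of other animals. Such a name records the known sequence that the authors' matching returned, and does not show that the sea cucumber has that gene.

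For every name the authors gave, per group, the reads of all 3 libraries added up and the mean of their levels in RPM (reads per M library reads, M for mega). The ratio of count to summed level equals the total of a library when all reads come from that library, which gave totals of 57.2, 61.9 and 113 M reads for the 48 h libraries. The control libraries had 91.6, 109 and 145 M reads and the 6 h libraries 54.4, 69.3 and 96.9 M reads. Which of the labelled animals each total belongs to is not known, so libraries are named here by their totals. Among names with all reads of a group in 1 library no level lay below 20.01 RPM, so a listed 0 was taken to mean that each library of that group lay under 20 RPM. The same minimum was assumed for each library of names with reads in more libraries. Every fold against such a 0 is a lower bound against 20 RPM in each library. The intestine is a mixture of cell types, and more cells of a type cannot be told apart from more RNA per cell. Of 3 miRNA numbers that mark vertebrate intestinal epithelium, only 1 was among the listed names, miR-194-5p, which had 9.87 RPM at 48 h, 51.6 RPM at 6 h and no control reads.

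All 87 names had a q-value under 0.05 in the authors' deposited table, the highest being 8.21e-184. The authors listed 43.1% of the 415 miRNAs tested as higher, by q-value and more than 2-fold. The number tested was inferred from the ratios of q-value to p-value. Since the choice used this contrast, nothing is read from the count. The median log2 ratio of the 87 in the authors' deposited table was 13.27, against 12.68 over the 179 names listed as higher. Over all 290 listed names, lower ones included, it was 1.55. The value of 13.27 is set by the 0.5 used for a control count of 0. The q-values compare pooled reads and do not measure the spread between animals. The 48 h means ran from 6.83 to 1426 RPM with a median of 14.7 RPM, and 31 of the 87 reached 20 RPM. The top 3 names, miR-6093, miR-8366a-3p and miR-1715-5p, held 55.0% of the summed mean level of 5657 RPM. The set is thus a few names of high level with a long tail close to the 20 RPM minimum of a library. No control reads were listed for 82 of the 87 names, against 67.6% of all names listed as higher.

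**Figure D1:**
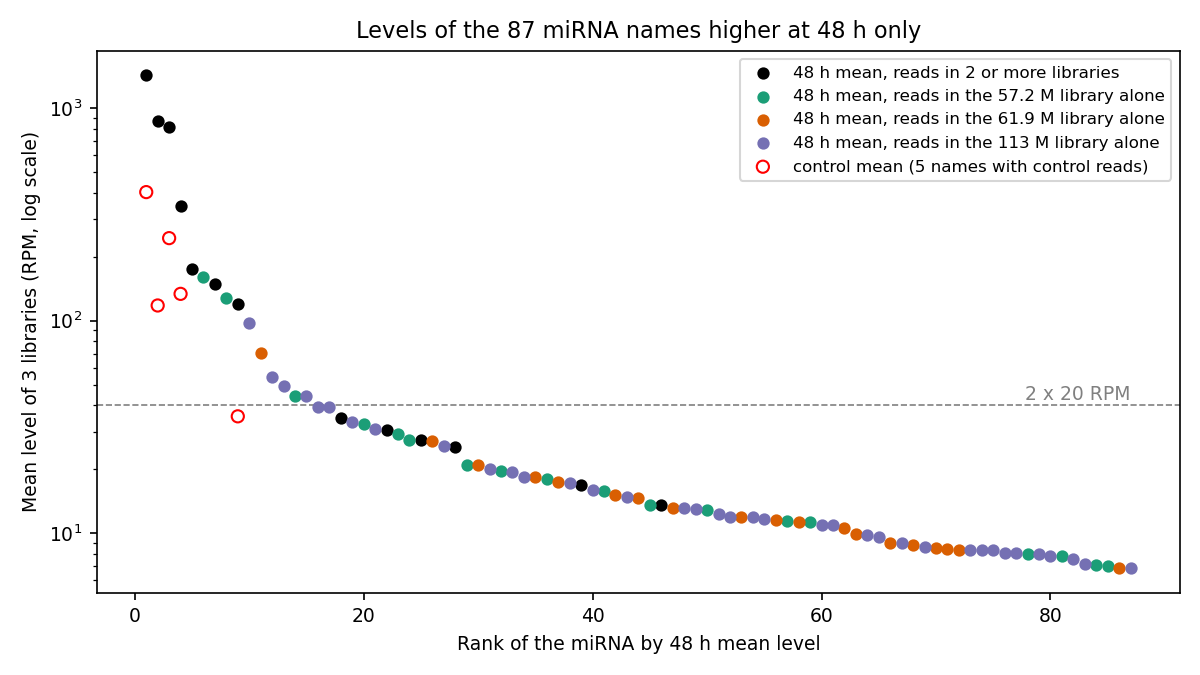
Mean level at 48 h of the 87 miRNA names, ordered from high to low on a log axis in RPM; filled points are 48 h means coloured by the library that holds the reads, and open red circles are control means where the control had reads. The 4 highest means, from 346 to 1426 RPM, belong to names with control reads, and 15 of the 87 names reach 40 RPM.

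The 5 names with control reads were miR-6093, miR-8366a-3p, miR-1715-5p, miR-7958-3p and miR-2206-3p. Those values are the only ones in the set that allow a ratio of levels. None was listed at 6 h, and the tables list names more than 2-fold from the control on pooled counts. Their pooled 6 h levels therefore lay within 2-fold of the control if the listing was complete. For miR-6093 this range was 253 to 1013 RPM around a pooled control level of 506 RPM, below the pooled 1499 RPM at 48 h. For miR-8366a-3p it was 74.1 to 296 RPM, against 668 RPM at 48 h. For all 5 names the pooled 48 h level lay above the range left at 6 h, as the choice of names fixes.

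**Figure D2:**
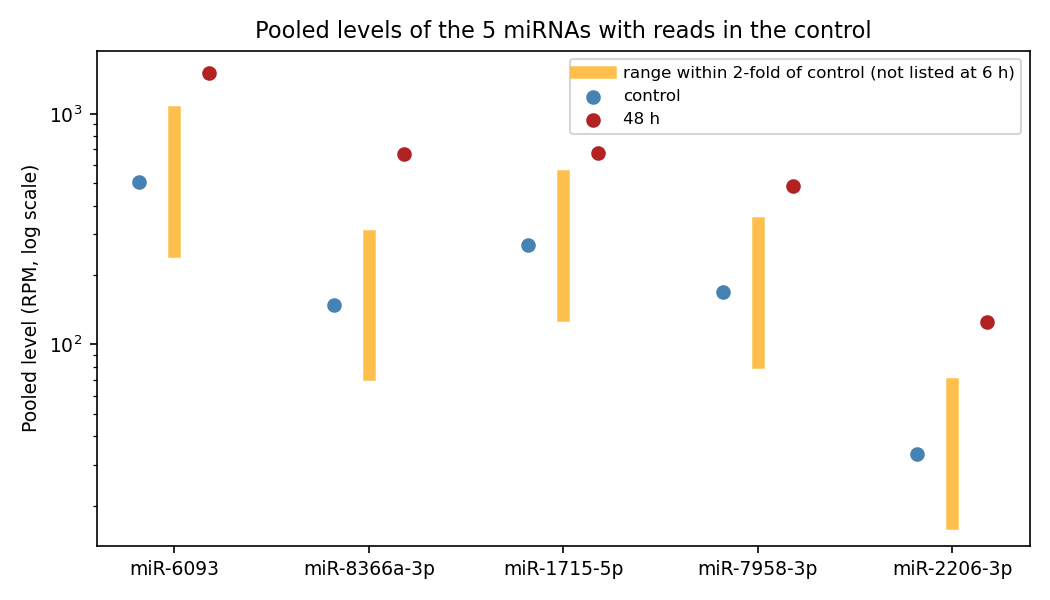
Pooled level (reads over the summed library totals, RPM, log axis) of the 5 miRNAs with control reads; blue points are the control, red points 48 h, and orange bars the range within 2-fold of the control in which an unlisted 6 h level would lie. For miR-2206-3p the control level was 33.6 RPM, the bar spans 16.8 to 67.1 RPM, and the 48 h level was 124.6 RPM.

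miR-6093 had the highest level of the set, 1426 RPM at 48 h from 348313 reads against 403 RPM in the control from 174973 reads. The ratio of means was 3.54, and at least 3.43 with the control libraries without listed reads set to 20 RPM. In the authors' deposited table its log2 ratio was 1.57. All control reads came from the library of 145 M reads, at 1208 RPM, so the other control animals had less than 20 RPM. At 48 h the count and the mean together place the 113 M library between 1624 and 1846 RPM. The second highest library of the group held at least 1269.6 RPM. At least 2 of the 3 animals at 48 h thus stood above the highest control animal, while the level of the third is not known. The smallest coefficient of variation the columns allow at 48 h was 19.0%. Splits with a library under 20 RPM are allowed too and give a larger one. Without the highest 48 h library the lower bound on the fold lay between 1.95 and 3.10, depending on the split.

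miR-8366a-3p had 872 RPM at 48 h from 155176 reads and 118 RPM in the control from 51204 reads. The ratio of means was 7.40 and at least 6.65 by the lower bound. The control reads again came from the 145 M library alone, at 353 RPM. At 48 h the 57.2 M library held 1426 to 2516 RPM and the 113 M library at most 99.5 RPM. The 61.9 M library could hold any level up to 1189.8 RPM. The highest 48 h library was thus above every control library, but the 113 M library was below the control library that had reads, so the groups overlapped. Without the highest 48 h library the others averaged between 49.8 and 595 RPM, which lies below or above the control mean of 118 RPM depending on the split.

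miR-1715-5p, a name first given in chicken, had 814 RPM at 48 h from 157014 reads against 244 RPM in the control from 93055 reads. The ratio of means was 3.33 and at least 3.24 by the lower bound. At 48 h the 113 M library held 115 to 309 RPM, and the other libraries together held 2133 to 2327 RPM. In the control the 145 M library held 365.2 to 486 RPM, above the 113 M library of the 48 h group. The groups overlapped, and at least 45.6% and up to 95.3% of the 48 h level was in 1 library. Without that library the others averaged between 57.3 and 665 RPM, below or above the control mean of 244 RPM depending on the split.

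miR-7958-3p stood at 346 RPM at 48 h from 113389 reads against 134 RPM in the control from 58081 reads, a ratio of 2.59 and of at least 2.35 by the lower bound. Of its 48 h level 92.3% to 92.9% was in the 113 M library, at 957 to 963 RPM. The other 48 h libraries held at most 73.6 and 80.3 RPM, and averaged at most 40.2 RPM. All control reads came from the 145 M library at 401 RPM. In the control and at 48 h, 1 animal carried nearly all of this miRNA. Without that 48 h animal the 48 h mean fell below the control mean, which kept the 145 M library. The other control libraries were under 20 RPM, below the average of 36.8 to 40.2 RPM of the other 48 h libraries.

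miR-2206-3p, a name first given in Caenorhabditis elegans, had 120.3 RPM at 48 h from 28963 reads and 35.4 RPM in the control from 11592 reads. The ratio of means was 3.40 and at least 2.86 by the lower bound. The 113 M library held 129 to 148 RPM at 48 h and a second library at least 111 RPM. No control library could exceed 71.5 RPM. At least 2 of the 3 animals at 48 h thus lay above every control animal, as for miR-6093. The least coefficient of variation was 13.3% at 48 h and 33.8% in the control. At 48 h a split with a library under 20 RPM is allowed too, with a larger spread. Without the highest 48 h library the lower bound on the fold lay between 1.53 and 2.66.

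Control reads of miR-6093, miR-8366a-3p and miR-7958-3p all lay in the same 145 M control library, the deepest of the 9. In that animal the level of each was at least 353 RPM, and in the other control animals it was under 20 RPM. The part of animal or depth in this was not tested.

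Among the 82 names without control reads, 8 had reads in 2 or more libraries at 48 h. The highest was miR-672, a rodent name, at 174 RPM from 48157 reads, at least 8.71-fold above a control of 20 RPM. The 113 M library held 307 to 325 RPM and the other libraries together 198 to 215.5 RPM. Left without the 113 M library, the others averaged 98.8 to 108 RPM, at least 4.94-fold above 20 RPM. miR-672 was the only name of the 87 that stayed at least 2-fold apart without its highest library under every split the columns allow.

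miR-2207-3p, like miR-2206-3p a Caenorhabditis elegans name, had 149 RPM from 27320 reads, at least 7.43-fold above a control of 20 RPM. Its pattern over libraries was the opposite of that of miR-672. The 57.2 M library held 57.0 to 413 RPM, the 61.9 M library up to 389 RPM and the 113 M library at most 32.5 RPM. Without the highest library the others averaged between 16.3 and 84.8 RPM, so the bound of 2-fold then holds for some splits and not for others.

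For 5 further names only 1 split fits the count, the mean and the 20 RPM minimum, which gives the level of each library. miR-316, a Drosophila name, had 54.1 RPM in the 57.2 M library, 49.8 RPM in the 61.9 M library and less than 20 RPM in the 113 M library. miR-2504 had 23.0 and 68.7 RPM in the same libraries, and miR-74a, a nematode name, had 21.5 and 60.9 RPM. miR-934-5p, a human name, had 33.7 RPM in the 57.2 M library and 42.5 RPM in the 61.9 M library. These 4 names had reads in both shallower libraries of the 48 h group and none listed in the deepest. The fifth, miR-9174, had 20.04 RPM in the 57.2 M library and 20.6 RPM in the 113 M library, both at the minimum. miR-2553-5p also had reads in exactly 2 libraries, the 113 M library at 20.1 to 22.7 RPM and either the 57.2 M library at 28.0 RPM or the 61.9 M library at 30.5 RPM. The means of these 6 names ran from 13.5 to 34.6 RPM, so none was 2-fold above a control that could hold 20 RPM in each library.

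**Figure D3:**
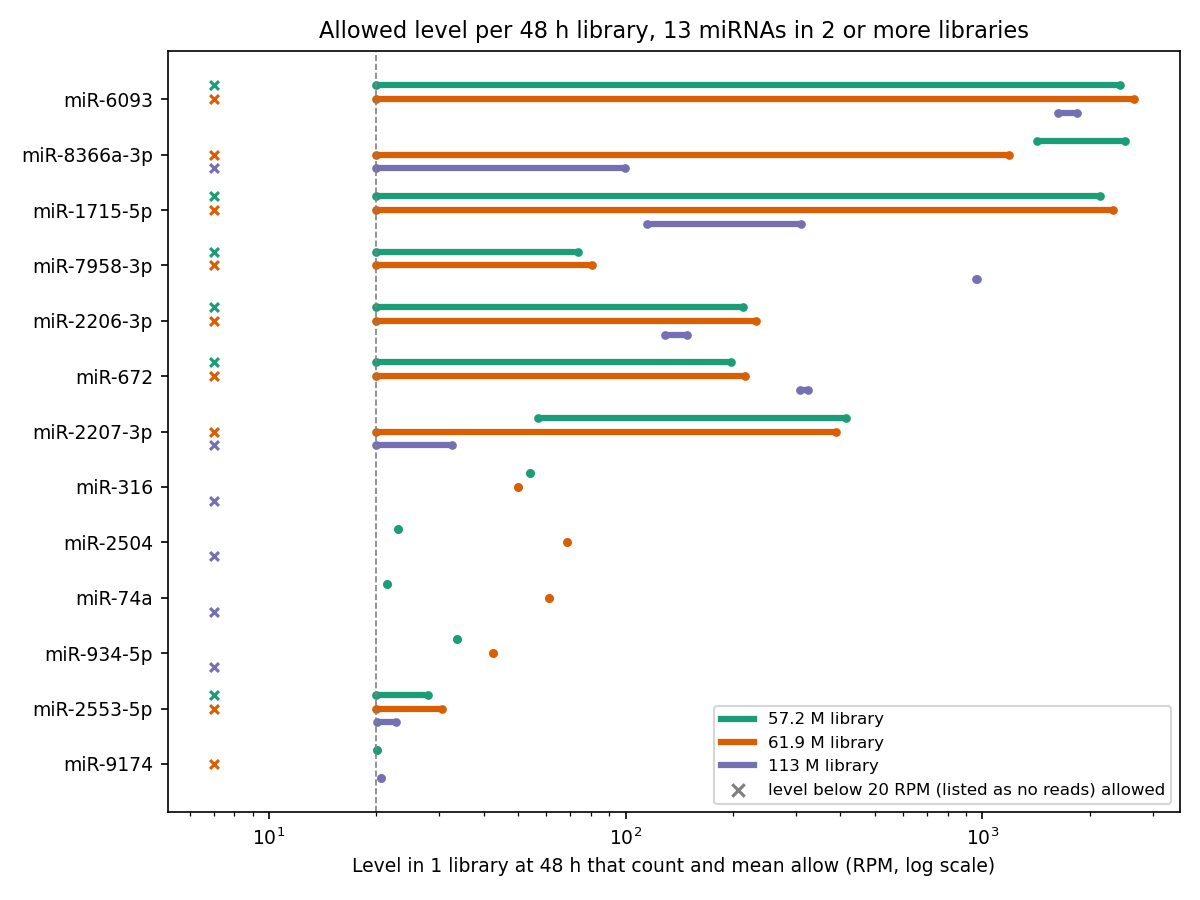
Level in each 48 h library (RPM, log axis) that the pooled count and the mean allow for the 13 miRNAs with reads in 2 or more libraries; bars span the allowed range above 20 RPM, points without a bar are fixed levels, and crosses mark that a level below 20 RPM is allowed. For miR-316, miR-2504, miR-74a and miR-934-5p the 113 M library has a cross alone, and for miR-7958-3p it holds 957 to 963 RPM. The bars of miR-2553-5p are an exception, since levels inside them are not allowed. Only the upper ends of its 57.2 M and 61.9 M bars and either end of its 113 M bar are.

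The other 74 names had all their 48 h reads in 1 library, against 62.6% of the 179 names listed as higher. No control reads were listed for any of them. Their level in the library that held them ran from 20.5 to 483 RPM with a median of 37.6 RPM. Of the 74, 25 lay under 30 RPM and 33 at 40 RPM or more. The 113 M library held 37 of these names, the 61.9 M library 19 and the 57.2 M library 18. The deepest library thus held as many as the other libraries together, although 20 RPM stood for 2267 reads there, 1238 reads in the 61.9 M library and 1144 reads in the 57.2 M library. Over all 179 names listed as higher, 112 had reads in 1 library, and the 113 M library held 50 of them. Depth and animal cannot be told apart in these counts.

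**Figure D4:**
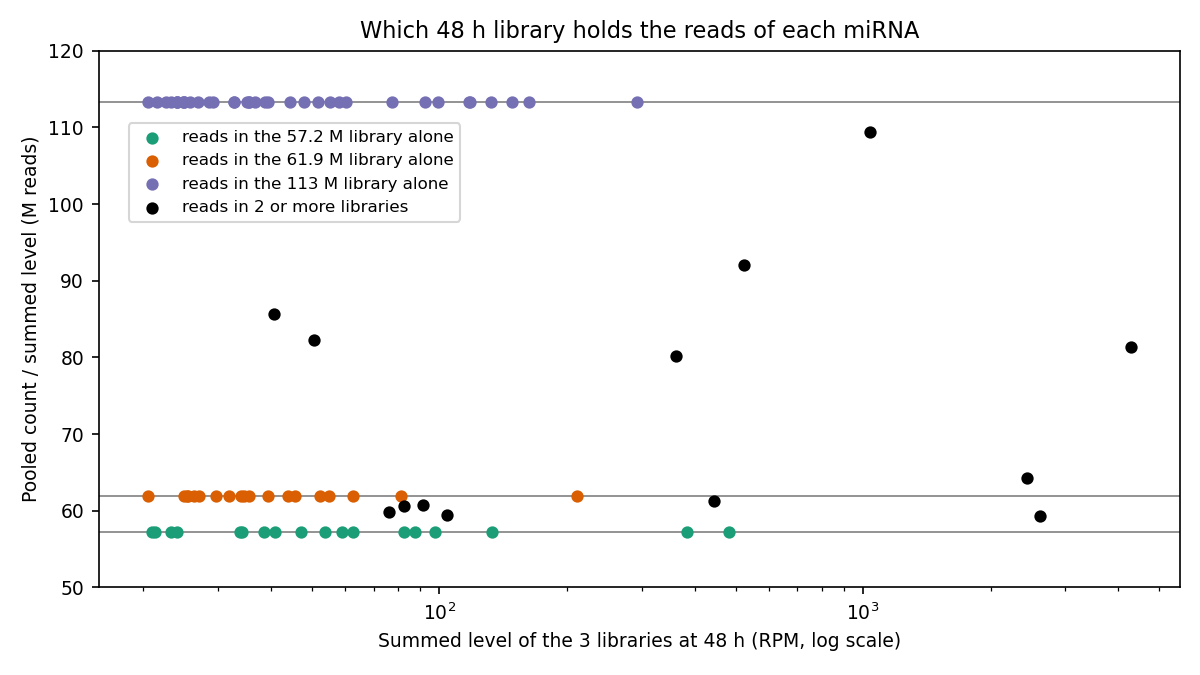
Pooled count divided by summed level (M reads) against the summed level at 48 h (RPM, log axis) for the 87 miRNA names; grey lines are the totals of the 3 libraries, and a point on a line has all its reads in that library. On the lines lie 37 names at 113 M, 19 at 61.9 M and 18 at 57.2 M reads, and 13 names lie between the lines.

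In the 113 M library miR-4711-3p, a human name, had the highest level at 293 RPM from 33163 reads. It was followed by miR-7134-5p at 163 RPM, miR-9811-5p at 148 RPM and miR-1934-5p, a mouse name, at 132 RPM. These 4 were at least 2-fold above a control of 20 RPM on the group mean. miR-5418 and miR-130a-5p followed at 118 and 117.5 RPM, with lower bounds of 1.97 and 1.96. The miR-130 family is studied in vertebrate blood vessel growth. miR-9855-5p, miR-1348, miR-466b-5p and miR-4639-3p lay between 60.2 and 99.4 RPM. In mouse, miR-466 genes lie in a large cluster in an intron of Sfmbt2. A further 8 names lay between 36.7 and 58.0 RPM, namely miR-1390-5p, miR-4742-3p, miR-2014-3p, miR-383-5p, miR-9424a, miR-6082, miR-4032-3p and miR-1382. Among them miR-383 is studied in the testis and ovary of mammals, and miR-4032 is a name from the tunicate Ciona. The rest lay between 20.5 and 35.6 RPM and were miR-281, miR-146a, miR-8099, miR-470-5p, miR-4196-5p, miR-1901, miR-7652-3p, miR-9111, miR-3785, miR-7297-5p, miR-8364i-5p, miR-8413-3p, miR-1383, miR-3477-5p, miR-6417, novel_mir_3, miR-3922-3p, miR-6412 and miR-3059-3p. In the tail of this library, levels lay close to the minimum, with 14 of its 37 names under 30 RPM.

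In the 57.2 M library miR-8119 reached 483 RPM from 27618 reads, the highest level of a name held by 1 library. miR-2482, a cattle name, had 384 RPM there and miR-6397, a mouse name, 133.2 RPM. The lower bounds of these 3 on the group mean were 8.05-, 6.41- and 2.22-fold. miR-7111-5p, miR-44-5p, miR-7084-5p, miR-1414-5p, miR-2284x, miR-61, miR-8869 and miR-4865-3p lay between 40.8 and 97.9 RPM. miR-2284 is a family of many copies in cattle, and miR-61 acts in vulval patterning of Caenorhabditis elegans downstream of the Notch receptor LIN-12. miR-6498-3p, miR-7648-3p, miR-7371e-5p, miR-7888-3p, miR-9439, miR-9341 and miR-6040 lay between 21.001 and 38.5 RPM. The median of the 18 names was 50.4 RPM, against 34.5 RPM for the 61.9 M library and 35.6 RPM for the 113 M library.

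In the 61.9 M library miR-146b-3p was the highest at 211 RPM from 13035 reads. Of the 19 names it alone was at least 2-fold above a control of 20 RPM on the group mean. The other 18 lay from 20.5 to 80.9 RPM. In order they were miR-8057, miR-9832-3p, miR-2070-3p, miR-1178-3p, miR-9189c, miR-4856a, miR-9012, miR-263b, miR-1683, miR-3551-3p, miR-6540-3p, miR-4874-3p, miR-871-5p, miR-216a, miR-2180, miR-7249-5p, miR-757 and miR-8920. The median of the 19 names, 34.5 RPM, was near the 35.6 RPM of the 113 M library, so low levels were not particular to this library.

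The lists of miRNA numbers linked to immunity, conservation or other roles held few of the 87 names. The immune and blood list had 2, both of the miR-146 family, which in mammals is induced by NF-kB and lowers Toll-like receptor signalling through IRAK1 and TRAF6. miR-146b-3p had a group mean of 70.2 RPM, from the 61.9 M library, a lower bound of 3.51-fold. miR-146a had a group mean of 11.8 RPM, from the 113 M library at 35.5 RPM. The names give different genes, and an arm is stated only for miR-146b-3p. Whether that arm shares the role in Toll-like receptor signalling was not tested. Reads of miR-146b-3p and miR-146a came from different animals, so no animal at 48 h had both at 20 RPM or more. No other number of the blood and immune cell marker list was listed at 48 h, and at 6 h only miR-181c-3p was, at 11.9 RPM with no control reads. Over the immune and blood list as a whole, 4 names were listed as higher and 2 as lower at 48 h, and 3 as higher and 1 as lower at 6 h.

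The list of families conserved across bilaterian animals held 3 of the 87 names, each in 1 library. miR-281, which is abundant in the midgut of mosquitoes, had 35.6 RPM in the 113 M library. miR-263b, which with miR-263a protects sensory bristle cells of Drosophila from cell death, had 35.6 RPM in the 61.9 M library. miR-216a, known from the pancreas of vertebrates, had 26.3 RPM in the 61.9 M library. All 3 were low, with group means of 8.77 to 11.9 RPM, and none passed the 2-fold lower bound. At 48 h the whole list had 5 names listed as higher and 3 as lower, and at 6 h 1 as higher and 4 as lower.

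The list of protostome numbers held 7 of the 87: miR-316, miR-44-5p, miR-74a, miR-934-5p, miR-281, miR-61 and miR-263b. miR-934-5p fell in the list by its number, although the name was first given in human. Of the 7, 3 had reads in 2 libraries, and the group means ran from 11.9 to 34.6 RPM. miR-44, of a Caenorhabditis elegans gene cluster with miR-42 and miR-43, stood at 87.8 RPM in the 57.2 M library. None of the 7 passed the 2-fold lower bound, and the whole list had 16 names listed as higher and 5 as lower at 48 h, and 12 and 6 at 6 h. The vertebrate-conserved list held 4 of the 87, miR-130a-5p, miR-146b-3p, miR-146a and miR-216a, out of 14 listed as higher and 6 as lower at 48 h; at 6 h the list had 13 higher and 5 lower.

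No name of the hypoxia and stress list, which includes miR-34 and miR-210, was among the 87; at 48 h the list had 1 name higher and 1 lower, and at 6 h 2 lower. The numbers listed as markers of muscle, neurons, epithelium, sensory cells and the vertebrate germ line were absent too. For muscle, neurons and epithelium this was in part because the rule left out miR-1, miR-7, miR-8, miR-9, miR-124, miR-133, miR-153, miR-205 and miR-429. Only numbers were matched, so relatives under other numbers were not looked for. Over all 290 names at 48 h the muscle numbers had 6 names higher and 2 lower, the neuronal 10 higher, the epithelial 2 higher and the sensory 1 lower, with none of the germ line. Numbers above 1000 made up 69 of the 87 names, 113 of the 179 names listed as higher and 186 of the 290 listed. The rule, which left out families by number, bears on this share. Of the 69, 9 had reads in 2 or more libraries. The 6 names in no list were miR-672, miR-466b-5p, miR-383-5p, miR-470-5p, miR-871-5p and miR-757. Of these miR-470 and miR-871 are mouse names from an X-linked cluster, at 32.8 RPM in the 113 M library and 27.1 RPM in the 61.9 M library. novel_mir_3, predicted by the authors, had 23.3 RPM in the 113 M library. Only miR-672 of these names had reads in 2 or more libraries.

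A stricter call set every control library that could lie below 20 RPM to that level and asked for a ratio of means of at least 2. It was met by 15 of the 87 names, or 17.2%, against 33.5% of the 179 names listed as higher and 48.9% of the 92 of these outside the 87. Of the 15, 7 had reads in 2 or more libraries: miR-6093, miR-8366a-3p, miR-1715-5p, miR-7958-3p, miR-2206-3p, miR-672 and miR-2207-3p. The other 8 had reads in 1 library each, 4 in the 113 M, 3 in the 57.2 M and 1 in the 61.9 M library. With the 48 h library of highest level left out, between 1 and 6 names could still pass, depending on how the reads were split. All were among the 13 names with reads in 2 or more libraries. For the other 74 names failure was fixed in advance, since no listed reads were left. A count of this kind is not given for the other names listed as higher, so no share stands beside it. miR-7958-3p could not pass in any split.

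The 87 names differed in their makeup from the other names listed as higher at 48 h, which is a description without a test. Reads came from 1 library for 85.1% of the 87, for 45.5% of the 55 names also listed at 6 h and for 35.1% of the 37 names left out by family. No control reads were listed for 94.3%, 41.8% and 43.2%. The median 48 h mean was 14.7, 39.7 and 763 RPM. Of the names with reads in 1 library, the 113 M library held 37 of 74 in the set. It held 10 of 25 among those also listed at 6 h and 3 of 13 among those left out by family. The rule bears on these shares, since a name without control reads is absent at 6 h only if no 6 h library held 20 RPM of it. At 6 h the authors listed 109 names without control reads, down to a mean of 6.715 RPM.

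**Figure D5:**
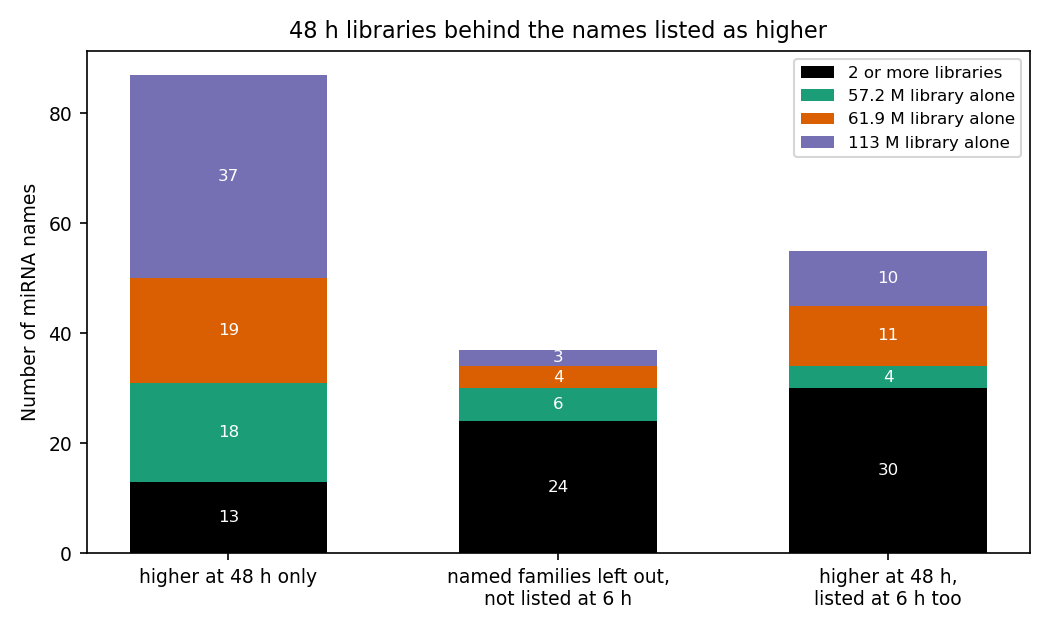
Number of miRNA names listed as higher at 48 h by the 48 h library that holds their reads, for the 87 names higher at 48 h only, the 37 left out by family and the 55 also listed at 6 h. The 87 names include 13 with reads in 2 or more libraries, against 24 of the 37 and 30 of the 55.

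At the edge of the choice, the members of lowest 48 h mean were miR-3059-3p at 6.83 RPM, miR-8920 at 6.84 RPM and miR-6040 at 7.001 RPM. Those of smallest log2 ratio in the authors' deposited table were miR-1715-5p at 1.33, miR-7958-3p at 1.54 and miR-6093 at 1.57. Just outside lay names that were higher at 48 h but also listed at 6 h. The nearest to the 2-fold limit at 6 h were miR-222-3p and miR-4110-3p, with log2 ratios at 6 h of 1.17 each in the authors' deposited table. Next was miR-8224-5p at -1.48, which stood at 1420.03 RPM at 48 h, 67.9 RPM in the control and 16.7 RPM at 6 h.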

How the data were processed

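Per the labels' protocols, Trizol was used on each animal's tissue, gel bands of 18 to 30 nt gave the small RNA, and HiSeq sequencing followed. The aligner, build and miRNA database are not given in the sources used, and no sequences were read. The authors deposited pooled read counts per group, mean levels, log2 ratios, p-values and q-values, per the file headers. Tested on the values, the authors' level is RPM averaged over 3 libraries, with 0.001 for a library at 0. The authors' log2 ratio compares pooled counts over pooled totals, with 0.5 for a count of 0, and the deposited p-values come from a test that is not named.

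The planned test on libraries could not be used, because the tables hold group columns only, and the authors' q-values were used instead. Library totals were taken as the 3 densest ratios of count to summed RPM. Summed per group, they matched the scaling in the authors' log2 ratio within 0.0126% at 6 h and 0.0272% at 48 h. For names in more libraries, all splits with each library at 0 or at least 20 RPM were solved. That minimum was inferred, not stated by the authors. On simulated 48 h groups 61 of 61 names in 1 library were recovered, and 0 of 54 others were assigned to 1 library. All 54 lay within the bounds, and 6 of 6 unique pairs were right. The simulation took the recovered totals as known and kept only names with at least 20 RPM in each library with reads. It therefore checks the arithmetic and cannot test the totals or the minimum. The lowest count, 1201 reads, has a counting error of 2.89%. The ranges given for libraries are the splits that count and mean allow and do not include counting error. Members and lists were chosen with earlier results of these data known. Named in full were the names with reads in 2 or more 48 h libraries and the 12 of highest 48 h level. Python 3.11.15, numpy 2.4.6 and pandas 2.3.3 were used. Alternatives changed the minimum, the fold, the scale, the totals, the join of names and the tolerance.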

Additional observations from a re-analysis of the deposited data

How the results depend on the processing

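The 87 names remained 87 when names of the same number with counts within 15% or 5% were joined, rose by the 37 left out with no family left out, and fell to 29 when names of any number with counts within 5% were joined, a join that also links names held by different libraries. With a mean of at least 20 RPM at 48 h asked for, 31 names were called by q-value and 26 had no control reads. The stricter call gave 15 names, 31 with a minimum of 10 RPM, 10 with 40 RPM and 6 at 4-fold. It gave 1 to 6 without the highest 48 h library, all among the 13 names with reads in 2 or more libraries. Without that library the level was 49.8 to 595 RPM for miR-8366a-3p, 57.3 to 665 RPM for miR-1715-5p and 36.8 to 40.2 RPM for miR-7958-3p. This was below the control mean at the lowest split for the first 2 (118 and 244 RPM) and under every split for miR-7958-3p (134 RPM). The control means kept their highest library. The 48 h level without its highest library was 812 to 1288 RPM for miR-6093, 64.3 to 112 RPM for miR-2206-3p and 16.3 to 84.8 RPM for miR-2207-3p. The median log2 ratio in the authors' deposited table was 13.27 and rests on 0.5 in place of a control count of 0: on means with a pseudocount of 1 RPM it was 3.80 and with 20 RPM 0.79. The pseudocount of 20 RPM left 16 of the 18 names given in full beyond 2-fold, all but miR-2553-5p and miR-9174. For a control count of 0 this asks only for a 48 h mean above 20 RPM, less than the stricter call does. miR-316, miR-2504, miR-74a and miR-934-5p passed it, although their lower bounds were 1.73, 1.53, 1.37 and 1.27. Totals without the 5 most abundant miRNAs shifted each log2 ratio by -0.048 and left all 18 beyond 2-fold. For names with a control count of 0 that outcome was fixed in advance, since the 0.5 sets their ratio. Doubling the tolerance kept the count of 74 names in 1 library. No paired analysis was possible because the tables hold columns pooled over the libraries of a group.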

Other observations

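Some names of different numbers had nearly equal counts at 48 h in the same library. miR-7297-5p and miR-8364i-5p had 2830 and 2829 reads, and miR-1383 and miR-3477-5p had 2728 and 2727 reads, all in the 113 M library and none in the control. The pairs were noticed among names within 2 reads of each other, of which 5 pairs were found and 3 joined different libraries. Whether reads were shared was not tested.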
